A study of Mus musculus with 12 samples.

Results

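Tmod1, Tmod2, Tmod3, Tmod4, Lmod2, Lmod3 and Neb were followed across the 4 groups of the series, as 7 of the 19938 genes that the array annotation names by exactly 1 symbol. The first 4 encode tropomodulins, the next pair leiomodins, and the last nebulin. They were taken by symbol from the deposited table, which holds 1 value per transcript cluster (a group of probes to the exons of a gene) and array. Where a gene had several clusters, the one with the highest mean over the 12 arrays was used. Tmod1 had 2 clusters and the other 6 genes had 1 each.

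A sarcomere's thin filament is a rod of actin, tropomyosin and troponin whose barbed end lies in the Z-disc and whose pointed end faces the M-band. Tropomodulins cap the pointed end and limit both the addition and the loss of actin there. Leiomodins are related proteins that bind the same end, nucleate actin and let the filament grow longer, so that leiomodin 2 and tropomodulin 1 are known to oppose each other in setting filament length in the heart. Nebulin is a giant protein that lies along the thin filament of skeletal muscle and stabilises it.

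RNA came from C2i-Myog cells. This stable line was derived from C2C12 mouse myoblasts and expresses mouse myogenin (Myog) with a Flag tag, a transcription factor of muscle differentiation, when doxycycline is added. The study's stated purpose was to assess myogenin and p38 signalling in muscle differentiation. All 4 groups carried the transgene and, by the treatment protocol, spent 48 h in differentiation medium, which held 1% horse serum plus 10 µg/mL each of insulin and transferrin. Control cells received no addition, Dox cells doxycycline at 0.2 µg/mL, SB cells the inhibitor of p38α and p38β MAP kinase SB203580 at 10 µM, and SB+Dox cells both. Each group had 3 arrays, and cells lacking the transgene were not given doxycycline, so that effects of the drug and of the transgene cannot be told apart. The label of the control arrays names no differentiation, so their culture rests on that protocol, which is given with every sample. The line is a single stable derivative, so the values describe these cells and not myoblasts in general.

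The values are log2 signals after RMA, a method that corrects for background, sets all arrays to the same distribution and summarises the probes of a cluster. Array medians lay between 4.86 and 5.06. A cluster was called changed when its p-value from limma, adjusted by the Benjamini-Hochberg method over the 21789 clusters with 1 symbol, was under 0.05. The adjusted p-values below are all from that fit unless another is named. Since nothing in the labels says that replicates were cultured separately, the p-values measure only how these arrays of a group vary, which may be technical variation. The 6 muscle markers examined (Myod1, Myf5, Des, Cdh15, Myog and Myh3) had means between 6.77 and 11.32. The 10 markers of fat, endothelial, immune, epithelial, smooth muscle and glial cells had means between 3.09 and 5.30, and 5 of them lay below the array median on all 12 arrays. Of the 6 muscle markers 3 were called lower and 1 higher in SB against control, where 3.87% of all clusters were called lower and 2.51% higher. The log2 of the muscle markers' summed signal lay between 12.52 and 12.95 on control arrays and 12.73 and 13.03 on Dox arrays. It lay between 12.06 and 12.36 on SB arrays, and 12.56 and 12.65 on SB+Dox arrays. For the other cell types it lay between 7.76 and 8.11 on all 12 arrays, with 0 of 10 called by limma in each of the 6 comparisons and at most 1 of 10 at an unadjusted p under 0.05. The part of the muscle markers' movement in the results below was not tested. Myog itself had group means of 9.91 (control), 10.37 (Dox), 7.70 (SB) and 8.33 (SB+Dox). Its changes with doxycycline passed the test neither without the inhibitor (adjusted p = 0.467) nor with it (adjusted p = 0.157). All 3 Dox arrays lay above the control arrays. Whether the probes of this cluster also read the transgene's transcript was not tested, so these values do not measure its induction.

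Tmod1 and Lmod2 moved in opposite directions in both single treatments. Against control, Tmod1 was 1.57-fold higher in SB and 2.22-fold lower in Dox, while Lmod2 was 2.05-fold lower in SB and 2.06-fold higher in Dox. The second Tmod1 cluster did not pass in SB (log2 change 0.34) or in Dox (-0.033). The SB rise in the Tmod1 cluster used was lost when some single arrays were left out. Lmod3 and Neb were 2.28-fold and 2.38-fold lower in SB, and neither passed the test in Dox. With both treatments Tmod1 reached its highest level, 2.52-fold above control, Lmod2 did not pass the test against control, and Lmod3 stayed 1.66-fold below it. Tmod2, Tmod3 and Tmod4 passed limma's test in 0 of the 6 comparisons, and at an unadjusted p under 0.05 only Tmod3 would pass, in Dox against control. In RNA from a whole culture, fewer cells expressing a gene and less RNA per cell cannot be told apart.

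**Figure D1:**
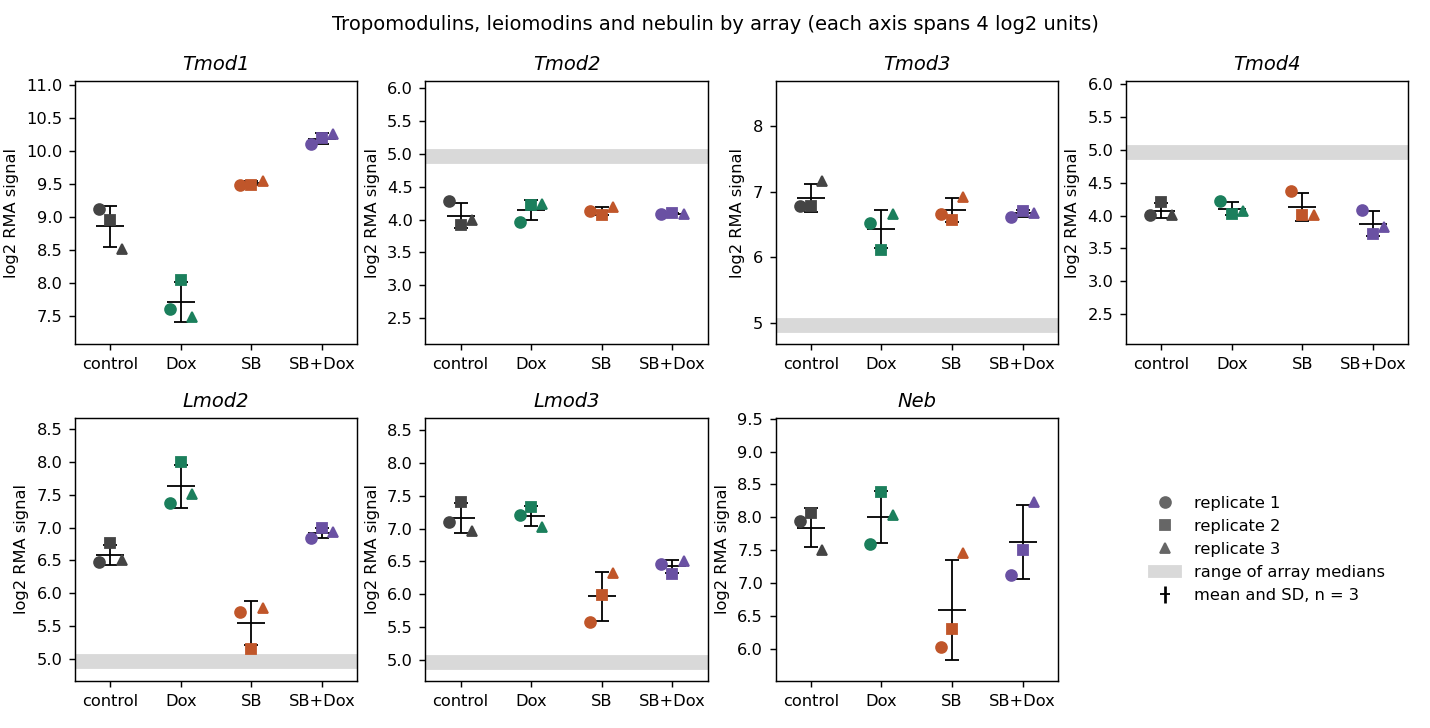
Log2 RMA signal of each gene on each of the 12 arrays, by group, with the mean and SD of 3 arrays in black and the range of the array medians as a grey band where it falls inside the axis. Tmod1 is lowest in Dox and highest in SB+Dox, Lmod2 is highest in Dox and lowest in SB, and Tmod2 and Tmod4 lie below the array median on every array.

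Tmod1 encodes the tropomodulin of striated muscle, red cells and several other tissues. In mouse genome build GRCm38.p6 the gene lies on chromosome 4 from 46038940 to 46116032. Its signal was 9.12, 8.95 and 8.51 on the 3 control arrays and 7.60, 8.05 and 7.47 on the Dox arrays. It was 9.49, 9.49 and 9.55 on the SB arrays and 10.10, 10.20 and 10.27 on the SB+Dox arrays. No array of any group overlapped another group, and the order from low to high was Dox, control, SB and SB+Dox. The spread within SB (SD 0.031) and SB+Dox (SD 0.084) was smaller than within control (SD 0.31) and Dox (SD 0.30, n = 3 each).

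In Dox against control Tmod1 fell by 1.15 on the log2 scale (SE 0.15, adjusted p = 3.64e-04). In SB+Dox against Dox it rose 5.59-fold (log2 change 2.48, SE 0.15, adjusted p = 1.72e-07), its widest change here, and in SB+Dox against control the log2 change was 1.33 (adjusted p = 1.33e-04). These 3 calls held without any single array. The rise in SB against control (log2 change 0.65, SE 0.15, adjusted p = 0.0188) was a narrower call. It was lost without control replicate 3 (adjusted p = 0.0777), SB replicate 1 (adjusted p = 0.0524) or SB replicate 2 (adjusted p = 0.0641). The rise in SB+Dox against SB (log2 change 0.68, SE 0.15, adjusted p = 0.0139) was lost without SB replicate 2 (adjusted p = 0.0544) or SB+Dox replicate 3 (adjusted p = 0.0685). With every cluster of the table tested, these 2 rises had adjusted p = 0.0721 and 0.0549.

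Doxycycline therefore went with less Tmod1 signal without SB203580 and with more Tmod1 signal in its presence. The interaction, taken as the difference between the doxycycline changes in inhibited and uninhibited cells, was 1.83 on the log2 scale (SE 0.22, 95% interval 1.37 to 2.30, adjusted p = 0.00253). Its value was 1.70 to 2.01 when each array was left out in turn, and the highest adjusted p was 0.0112. Of all clusters 0.895% were called for the interaction, and Tmod1 was the 1 of the 7 genes among them. With every cluster tested only 6 passed, and Tmod1 was past the threshold there too (adjusted p = 0.0494).

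The second Tmod1 cluster did not follow this pattern. It is annotated to a single cDNA clone, whereas the cluster described above carries the RefSeq transcript of the gene. Control arrays averaged 5.96 ± 0.12, Dox arrays 5.93 ± 0.067, SB arrays 6.30 ± 0.18 and SB+Dox arrays 6.0 ± 0.19 (log2, SD, n = 3). It passed the test in 0 of the 6 comparisons, with an unadjusted p under 0.05 from limma in SB against control (log2 change 0.34) and in SB+Dox against SB (log2 change -0.29). The latter change and its interaction (-0.26, adjusted p = 0.59) had the opposite sign to those of the main cluster. The Tmod1 results above therefore rest on 1 of the 2 clusters.

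Tmod3 encodes the broadly expressed tropomodulin, which caps actin filaments of the cytoskeleton and of the sarcoplasmic reticulum membrane in muscle. The gene lies on chromosome 9 from 75497784 to 75559657. The control arrays gave 6.78, 6.79 and 7.15 and the Dox arrays 6.53, 6.11 and 6.66. The SB arrays gave 6.67, 6.57 and 6.92 and the SB+Dox arrays 6.61, 6.71 and 6.68. The 3 Dox arrays lay below the 3 control arrays, and so did the 3 SB+Dox arrays. The change in Dox against control was -0.47 (SE 0.14, 95% interval -0.78 to -0.17, adjusted p = 0.0765). A block on replicate number brought it past the threshold (adjusted p = 0.0196). In SB against control the interval was -0.49 to 0.12.

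Tmod2, the tropomodulin of neurons, and Tmod4, that of adult skeletal muscle, gave dim signals. The former lies on chromosome 9 from 75565621 to 75611342, the latter on chromosome 3 from 95122799 to 95129209. Tmod2 lay between 3.91 and 4.28 on the 12 arrays, with group means of 4.06 (control), 4.14 (Dox), 4.13 (SB) and 4.09 (SB+Dox). Tmod4 lay between 3.72 and 4.37, with means of 4.07, 4.10, 4.13 and 3.87 in the same order. Both lay below the array median on 12 of 12 arrays, and Tmod4 was the 1 gene of the 7 under the 25th percentile of cluster means. No level of background was measured, so it was not shown that either transcript was present. Their groups overlapped in every comparison, and the 95% intervals of their changes in SB against control were -0.16 to 0.30 for Tmod2 and -0.21 to 0.32 for Tmod4.

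Lmod2 encodes the leiomodin best known from the heart, where it elongates thin filaments. The gene lies on chromosome 6 from 24597771 to 24605414. The 250 bases before its start, chr6:24597521-24597770 on the plus strand of GRCm38.p6, were taken from the RefSeq promoter table. They are shown because Lmod2 was the 1 gene of the 7 called higher with doxycycline both without and with the inhibitor. Myogenin binds E-boxes, but whether it binds this window was not tested. Capitals mark the E-box match CANNTG.

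Lmod2: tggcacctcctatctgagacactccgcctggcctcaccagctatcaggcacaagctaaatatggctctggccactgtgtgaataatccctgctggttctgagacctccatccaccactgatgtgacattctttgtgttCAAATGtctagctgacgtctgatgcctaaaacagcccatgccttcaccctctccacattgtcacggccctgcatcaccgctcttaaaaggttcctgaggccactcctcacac

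The window held 1 E-box, which starts 112 bases before the gene's start, and no E-box of the form CAGCTG, no MEF2 box and no serum response element (CArG box) on either strand. CANNTG reads the same on both strands and also covers CAGCTG. Only exact matches were counted, so near matches were left out. The CArG box was taken as CC[AT]{6}GG and the MEF2 box as [CT]TA[AT]{4}TA[AG], with bracketed letters as alternatives. Among 32851 windows of the same length in the table, 66.2% held CANNTG, 13% CAGCTG, 2.92% the MEF2 box and 1.47% the CArG box. Of the 7 genes 4 were in the promoter table. The windows of Tmod1, Tmod2 and Tmod4 overlap the annotated genes, so they are not set against that of Lmod2.

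Lmod2 signal was 6.48, 6.76 and 6.51 on the control arrays and 7.38, 7.99 and 7.51 on the Dox arrays. It was 5.71, 5.16 and 5.77 on the SB arrays and 6.84, 6.99 and 6.93 on the SB+Dox arrays. No array of any group overlapped another group, and the order from low to high was SB, control, SB+Dox and Dox. The neighbours control and SB+Dox did not differ past the test (log2 change 0.34, 95% interval -0.025 to 0.70, adjusted p = 0.364).

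Lmod2 fell by 1.03 in SB against control (log2, SE 0.17, adjusted p = 0.00181) and rose by 1.04 in Dox against control (SE 0.17, adjusted p = 0.00153). It rose 2.59-fold in SB+Dox against SB (log2 change 1.37, SE 0.17, adjusted p = 3.54e-04). These 3 calls held without any single array and with every cluster tested. It was 1.63-fold lower in SB+Dox against Dox (log2 change -0.70, adjusted p = 0.0128), a call lost without Dox replicate 2 (adjusted p = 0.0655), without SB+Dox replicate 1 (adjusted p = 0.053) or with every cluster tested (adjusted p = 0.0523). The doxycycline change of Lmod2 with the inhibitor was not shown to differ from that without it (interaction 0.33, 95% interval -0.18 to 0.84, adjusted p = 0.641).

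Lmod3 encodes the leiomodin of skeletal muscle, whose loss in humans causes a severe nemaline myopathy. The gene lies on chromosome 6 from 97238530 to 97253217. The control arrays gave 7.11, 7.40 and 6.96 and the Dox arrays 7.20, 7.33 and 7.03. The SB arrays gave 5.58, 6.0 and 6.33 and the SB+Dox arrays 6.46, 6.32 and 6.50. All 6 arrays with the inhibitor lay below all 6 without it. Control and Dox overlapped, and so did SB and SB+Dox.

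In SB against control Lmod3 fell by 1.19 (log2, SE 0.16, adjusted p = 4.42e-04) and in SB+Dox against Dox by 0.76 (SE 0.16, adjusted p = 0.00588), and both calls held without any single array. It fell by 0.73 in SB+Dox against control (SE 0.16, adjusted p = 0.015), which no longer passed without SB+Dox replicate 2 (adjusted p = 0.0717), without control replicate 2 (adjusted p = 0.0754) or with every cluster tested (adjusted p = 0.0653). With doxycycline alone the change was 0.031 (95% interval -0.32 to 0.38, adjusted p = 0.979). In the presence of the inhibitor doxycycline gave 0.45 (95% interval 0.11 to 0.80, adjusted p = 0.118), and with SB replicate 1 left out it was 0.26 (adjusted p = 0.437). Leaving out SB replicate 3 gave 0.64, which passed (adjusted p = 0.0161). The interaction was 0.42 (95% interval -0.067 to 0.91, adjusted p = 0.516).

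Neb encodes nebulin and lies on chromosome 2 from 52136640 to 52338798. The control arrays gave 7.94, 8.07 and 7.51 and the Dox arrays 7.59, 8.39 and 8.03. The SB arrays gave 6.02, 6.30 and 7.45 and the SB+Dox arrays 7.12, 7.51 and 8.23. SB replicate 3 lay well above the other SB arrays and just under the lowest control array, and replicate 3 was the highest array in SB+Dox too. The SD of the SB arrays was 0.76 and that of the SB+Dox arrays 0.56, while control and Dox had 0.30 and 0.40 (log2, n = 3).

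In SB against control Neb fell by 1.25 (log2, SE 0.33, adjusted p = 0.0349). It missed the threshold without SB replicate 1 (adjusted p = 0.16), SB replicate 2 (0.159), control replicate 1 (0.109) or control replicate 2 (0.13), and with every cluster tested (0.131). Without SB replicate 3 the change was -1.68 (adjusted p = 0.00211). The change in SB+Dox against SB was 1.03 (SE 0.33, adjusted p = 0.0806), with differences of 1.10, 1.21 and 0.78 between arrays of the same number. Over all genes, deviations of SB and SB+Dox arrays with the same number correlated at 0.43, 0.18 and 0.47, which does not settle whether they were paired. With a block on replicate number, fitted over all 4 groups, the Neb change passed (adjusted p = 0.0399). Without the block it passed when SB replicate 3 (1.46, adjusted p = 0.00524) or SB+Dox replicate 1 (1.28, adjusted p = 0.0491) was left out. It was smaller without SB replicate 1 (0.75, adjusted p = 0.314) or SB+Dox replicate 3 (0.72, adjusted p = 0.343). Doxycycline without the inhibitor gave a change of 0.16 (95% interval -0.55 to 0.87, adjusted p = 0.928).

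**Figure D2:**
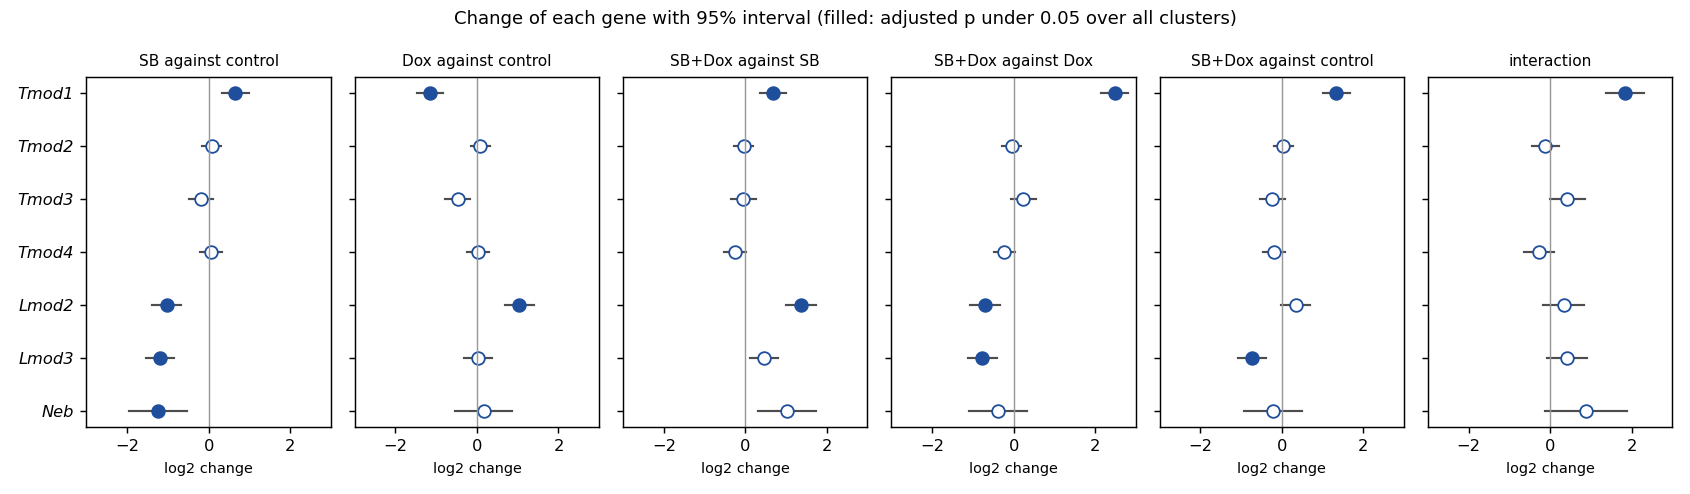
Log2 change of each gene in each of the 6 comparisons, with the 95% interval from the fit as a bar; filled points had an adjusted p under 0.05 over all clusters. Tmod1 is filled in all 6 panels, Lmod2 in 4, Lmod3 in 3 and Neb in 1.

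Counted over the 7 genes, SB against control called 4, with 1 higher and 3 lower, where 6.38% of all clusters were called (2.51% higher and 3.87% lower). Dox against control called 2, 1 in each direction, where 5.31% of all clusters were called (1.43% higher and 3.88% lower). SB+Dox against SB called 2, both higher, where 7.11% of all clusters were called (4.4% higher and 2.71% lower). Of the pair SB+Dox against Dox 3 were called, with 1 higher and 2 lower, where 10.4% of all clusters were called (6.97% higher and 3.43% lower). SB+Dox against control called 2, 1 in each direction, where 5.26% of all clusters were called (2.84% higher and 2.42% lower). The median change of the 7 genes was -0.19, 0.031, 0.45, -0.23 and -0.20 in these comparisons, beside 0.028, 0.006, -0.042, -0.025 and -0.016 over all clusters. A filter at the 25th percentile of cluster means left 6 of the 7 genes. The comparisons share arrays (control in 3 of them, SB+Dox in 3, and SB and Dox in 2 each), so the counts do not stand independently.

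Whether the others changed differently from Tmod1 was asked of the difference between each gene and the main Tmod1 cluster on the same array. This contrast of genes was chosen with earlier results of these data known. Relative to Tmod1 and to the control mean, Lmod2 measured 2.05, 2.22 and 2.31 on the Dox arrays, -1.5, -2.06 and -1.5 on the SB arrays and -0.99, -0.93 and -1.06 on the SB+Dox arrays (log2). The control arrays lay between -0.36 and 0.27. By the main Tmod1 cluster, the balance of the 2 genes was thus shifted to Lmod2 on every Dox array. It was shifted to Tmod1 on all 6 arrays with the inhibitor. Lmod2 itself was not below control in SB+Dox (log2 change 0.34). The second Tmod1 cluster changed by only 0.045 in SB+Dox against control, so with it the mean shift there was not to Tmod1.

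**Figure D3:**
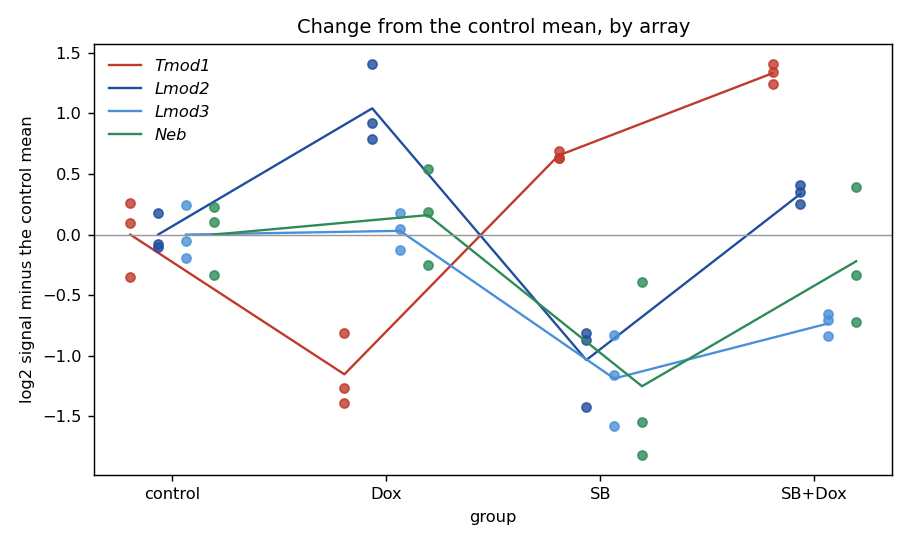
Log2 signal minus the mean of the control arrays for Tmod1, Lmod2, Lmod3 and Neb, each point 1 array and each line joining group means. In Dox the Tmod1 points lie below and the Lmod2 points above the control mean, in SB this order is turned, and in SB+Dox Tmod1 lies above all arrays of the other 3 genes.

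The difference between the SB change of Lmod2 and that of Tmod1 was -1.69 (SE 0.16, adjusted p = 2.67e-05 from a limma fit in which the rows of differences were added to the table of clusters). For the Dox change it was 2.19 (SE 0.16, adjusted p = 7.74e-06 from the same fit). In SB+Dox against SB, where both genes rose, Lmod2 rose by 0.69 more (adjusted p = 0.0179). Each such difference holds the change of Tmod1 itself, which was 0.65 in SB against control and -1.15 in Dox against control. For Lmod3 the difference was -1.84 in SB against control and 1.18 in Dox against control (adjusted p = 1.39e-05 and 4.86e-04), and for Neb -1.90 and 1.31 (adjusted p = 0.00115 and 0.0137). The Dox differences of Lmod3 and Neb are nearly all the fall of Tmod1, since their own changes were 0.031 and 0.16. In the planned fit of every cluster against Tmod1, whose p-values are not relied on, 88.5% of clusters were called in SB against control and 98.4% in Dox against control. Neither was shown to differ from Tmod1 in SB+Dox against SB, with 95% intervals of -0.58 to 0.13 for Lmod3 and -0.27 to 0.98 for Neb.

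An exact permutation test of the same differences, two-sided, moved array labels for SB within each level of doxycycline and for Dox within each level of SB. With 400 regroupings its smallest possible p is 0.005, and 12 such tests were run, 6 genes by 2 treatments. The SB effect averaged over doxycycline levels was -2.44 for Lmod2, -2.54 for Lmod3 and -2.38 for Neb relative to Tmod1, each at the smallest exact p of 0.005. Over all 21788 other clusters, 84.9% reached this p against Tmod1, so these 3 values are not particular to the leiomodins and nebulin. The Dox effect averaged over SB levels was 1.44 for Lmod2 (exact permutation p = 0.005, reached by 0.441% of clusters), 0.83 for Neb (exact permutation p = 0.03) and 0.48 for Lmod3 (exact permutation p = 0.095). An exact p under 0.05 for the Dox effect was found in 1.59% of clusters. The values for Tmod2 and Tmod4 are not given, because both lay below the array median on every array. Tmod3 had exact p = 0.005 for SB (-1.54) and 0.93 for Dox (-0.025). Its Dox average joins 0.68 in Dox against control and -0.73 in SB+Dox against SB. Neither passed in the limma fit with the difference rows added (adjusted p = 0.184 and 0.108). The exact p of 0.93 therefore does not show that Tmod3 and Tmod1 changed alike with doxycycline. For Lmod3 the Dox average likewise joins 1.18 and -0.22.

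The genes beside these in the thin filament were read from 3 lists. Of the 22 genes that act at filament ends or with nebulin, SB against control raised 1 and lowered 2. SB+Dox against SB raised 3 and lowered 0, and Dox against control raised 3 and lowered 0. Over all clusters the share called was 6.38%, 7.11% and 5.31% in these comparisons. Their median change in SB against control was -0.13, beside 0.028 over all genes. Capza1, Capza2 and Capzb, the barbed-end capping subunits, did not pass in SB against control (0.033, -0.33 and 0.056, adjusted p = 0.911, 0.0663 and 0.853). Nor did the smooth muscle leiomodin Lmod1 (-0.11, adjusted p = 0.716) or the nebulin relatives Nebl (-0.0022, adjusted p = 0.995) and Nrap (-0.35, adjusted p = 0.164).

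Among the called genes of this list, Xirp1, an actin-binding repeat protein of muscle junctions, fell from 7.92 ± 0.52 in control to 6.79 ± 0.15 in SB (log2, SD, n = 3, adjusted p = 0.0117). It was 8.02 ± 0.31 in SB+Dox, a rise of 1.23 from SB (adjusted p = 0.00652). Its relative Xirp2 rose by 1.42 from SB to SB+Dox (adjusted p = 6.97e-04). Csrp3, a LIM protein of the Z-disc, fell by 0.72 in SB against control (adjusted p = 0.0453). Klhl40, which is known from mouse muscle to stabilise leiomodin 3 and nebulin, was called among the 3 raised genes both in Dox against control (log2 change 0.57, adjusted p = 0.0213) and in SB+Dox against SB (0.68, adjusted p = 0.00645). Klhl40 was singled out after its values were seen. Without a replicate block, Lmod3 and Neb passed the test in neither of these comparisons. A link between Klhl40 and these genes was not tested.

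The next list held the body of the thin filament. Of 12 actin, tropomyosin and troponin genes 7 fell and 0 rose in SB against control, with a median change of -0.74 beside 0.028 over all genes. In SB+Dox against SB 6 rose and 1 fell, with a median of 0.52 beside -0.047. Over all clusters the share called was 6.38% and 7.11% in these comparisons, and the lists were not tested against each other. Tnnc1, slow troponin C, averaged 11.22 ± 0.15 on control arrays, 9.12 ± 0.58 on SB arrays and 11.23 ± 0.14 on SB+Dox arrays (log2, SD, n = 3; adjusted p = 2.80e-05 and 5.83e-05 for the fall and the rise). Tnnt1, slow troponin T, fell by 1.23 in SB against control (adjusted p = 0.00664). Tnni2, fast troponin I, rose by 1.66 from SB to SB+Dox (adjusted p = 9.01e-05).

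Of 18 genes of cytoskeletal actin turnover 16 were measured, and Actg1 and Actr2 were not analysed here. In SB against control 0 rose and 4 fell, with a median of -0.14 beside 0.028 over all genes. Over all clusters 6.38% were called in this comparison and 7.11% in SB+Dox against SB. Tmsb4x, thymosin beta 4, which sequesters actin monomers, fell by 1.02 (adjusted p = 0.00298). Capg, a capper of barbed ends, fell by 0.85 (adjusted p = 5.72e-05). In SB+Dox against SB 2 rose and 2 fell, with Tmsb10, thymosin beta 10, up by 0.62 and the actin depolymerising protein gene Dstn up by 0.61 (adjusted p = 0.00114 and 0.0228).

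**Figure D4:**
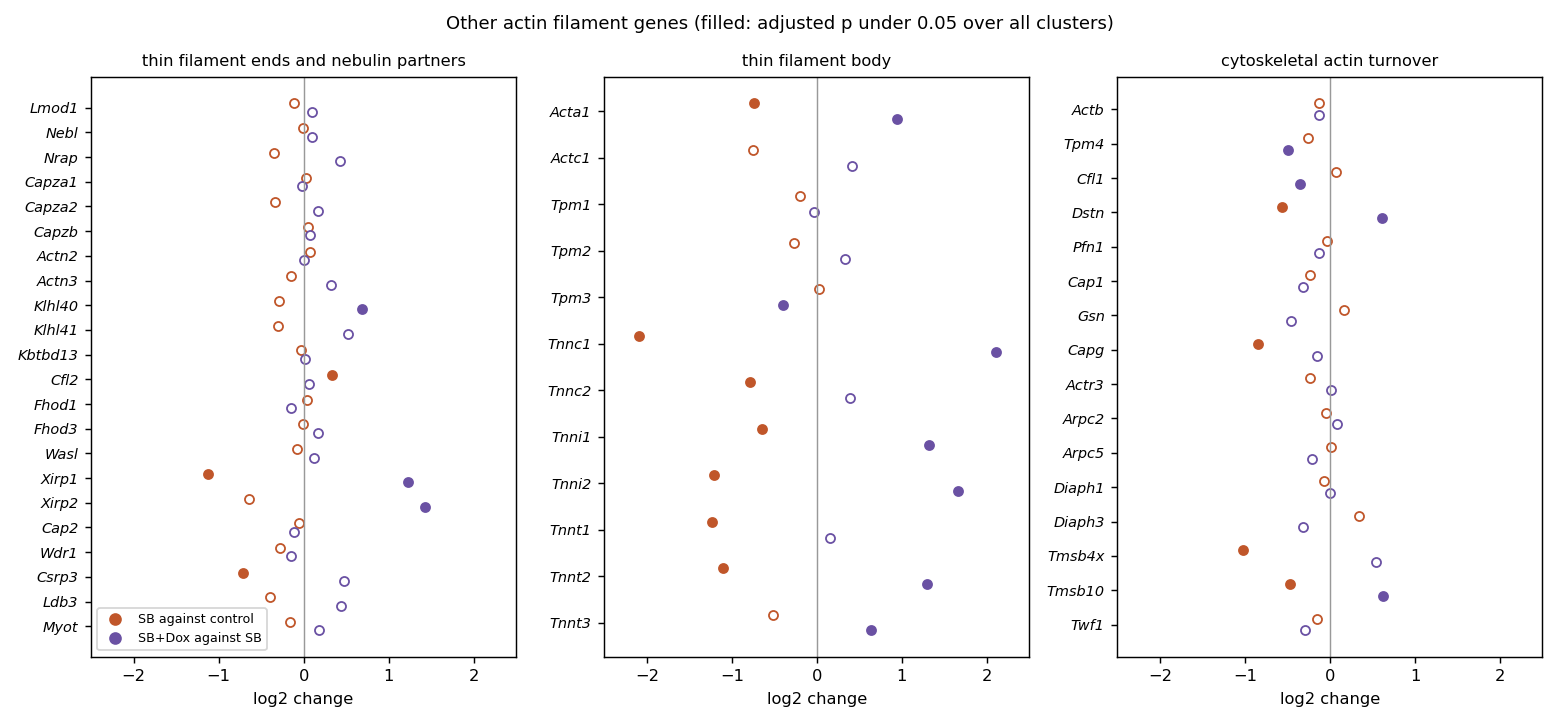
Log2 change in SB against control (orange) and in SB+Dox against SB (purple) of the genes of 3 lists around the thin filament; filled points had an adjusted p under 0.05 over all clusters. Filled points are most frequent in the middle panel, with 7 of 12 genes lower in SB and 6 higher in SB+Dox than in SB.

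The genes with the most similar profiles were sought for each of the 4 called genes by the root mean square difference of log2 values over the 12 arrays, after centring each gene on its own mean, among 18321 genes. For Tmod1, whose own spread about its mean was 0.93, the nearest were Oxct1 at 0.27, Pygm at 0.31 and Ccdc8 at 0.32. Oxct1, an enzyme of ketone body use, had group means of 7.84 (control), 6.69 (Dox), 8.26 (SB) and 8.61 (SB+Dox). Pygm, muscle glycogen phosphorylase, had 8.02, 6.81, 8.34 and 8.70 in the same order. Both were thus lowest in Dox and highest in SB+Dox, the order seen for Tmod1.

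For Lmod2, with a spread of 0.78, the nearest were Deptor, an inhibitor of mTOR, at 0.16, the membrane repair gene Dysf at 0.25 and the cytoskeletal linker gene Macf1 at 0.28. Deptor had group means of 7.71 (control), 8.67 (Dox), 6.54 (SB) and 7.81 (SB+Dox). For Lmod3, with a spread of 0.55, they were Lsp1 at 0.14, Dapk2 at 0.16 and Rflnb at 0.17, and Lsp1 had means of 9.69, 9.69, 8.65 and 9.12. For Neb, with a spread of 0.70, they were the M-band gene Myom1 at 0.21, the actin-binding protein gene Nexn at 0.26 and the muscle creatine kinase gene Ckm at 0.27. None of the 7 genes was among the nearest 3 of another. These distances describe 12 arrays that share 4 treatments, and no test was made of them.

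**Figure D5:**
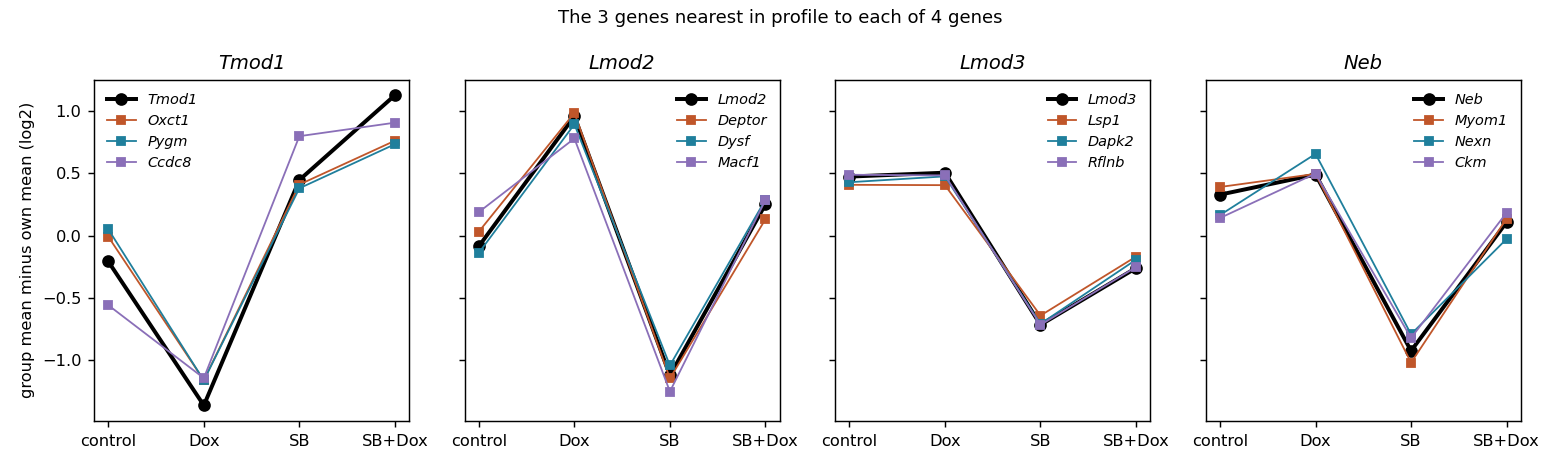
Group means on the log2 scale, each minus the mean of the gene's 4 group means, for Tmod1, Lmod2, Lmod3 and Neb (black) and the 3 genes nearest in profile to each (coloured). Genes near Tmod1 dip in Dox, whereas those near Lmod2, Lmod3 and Neb dip in SB.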

How the data were processed

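RNA of 12 samples of C2i-Myog cells was measured on Affymetrix whole-transcript arrays. The deposited log2 values were made by the authors with RMA in Affymetrix Expression Console, per the submitters' processing notes; their versions are not given in the sources used here. It holds 35557 transcript clusters with 0 missing values, of which 1621 carried several symbols and 12147 none. Both kinds were tested only in the alternative with every cluster. Symbols were updated by Entrez identifier for 21698 clusters, and coordinates are those of the RefSeq gene table (GRCm38.p6).

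One mean per group was fitted to all arrays with limma 3.58.1 in R 4.3.3 and eBayes (8 residual and 6.56 prior degrees of freedom). The genes, lists and tests were chosen with earlier results of these data known. Named were the 7 genes, the 3 genes nearest in profile to each called one, and per list up to 2 called genes with the largest change in SB against control and in SB+Dox against SB; others named were chosen after their values were seen. The planned test against Tmod1 subtracted Tmod1 from every cluster. All rows then shared its error, so the fit took their spread as equal (infinite prior degrees of freedom) and its p-values are not printed. Adding the 6 rows of differences to the table (6.55 prior degrees of freedom) replaced it and was chosen after seeing the data, as was running the exact test over all clusters. The fit was also run on simulated data with known changes, whose errors were drawn independently for each cluster and array. That run cannot show how the p-values hold where clusters share deviations of an array.

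Deviations from group means of arrays with the same replicate number correlated at 0.43, 0.18 and 0.47 between SB and SB+Dox. Each was above 0.1 and above those with other numbers. With 3 arrays per group such a match does not settle whether these groups were paired. Not all passed 0.1 in control and SB (0.20, -0.064 and -0.083), control and Dox (0.018, 0.20 and 0.40) or control and SB+Dox (0.17, 0.10 and 0.045). The same held for Dox and SB (-0.14, 0.19 and 0.014) and for Dox and SB+Dox (0.095, 0.27 and 0.14). In Dox and SB+Dox each was also above those with other numbers. Alternatives were a replicate block, median centring, a filter on dim clusters, a variance trend, all clusters tested, the other Tmod1 cluster, and each array left out. The number of arrays limits the precision.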

Additional observations from a re-analysis of the deposited data

Results flagged for a closer look

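The change of Tmod1 with doxycycline differed between cells with and without SB203580, by 1.83 on the log2 scale in the test of the difference itself (limma, adjusted p = 0.00253); it was lower on all 3 Dox arrays than in control and higher on all 3 SB+Dox arrays than in SB. The same difference, taken relative to Tmod1 on each array, was -1.95 for Tmod2, -2.11 for Tmod4, -1.5 for Lmod2 and -1.41 for Lmod3 (limma adjusted p = 8.54e-04, 0.0038, 0.0109 and 0.0157). For Tmod3 (-1.41, adjusted p = 0.095) and Neb (-0.96, adjusted p = 0.378) it did not pass. The 4 passing values share the Tmod1 measurement and restate its interaction, since Tmod2, Tmod4, Lmod2 and Lmod3 passed no test of interaction of their own. The second Tmod1 cluster had an interaction of -0.26 (adjusted p = 0.59).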

How the results depend on the processing

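With arrays left out in turn, the 7 genes had 2 to 4 calls in SB against control, 1 to 4 in SB+Dox against SB and 1 to 2 in SB+Dox against control. With every cluster tested these were 2, 1 and 1. Clusters called numbered 1390 in SB against control (779 to 1644 with an array left out, 876 with every cluster tested), 1156 in Dox against control (744 to 1305) and 1550 in SB+Dox against SB (724 to 2521, the highest without SB replicate 3). They numbered 1146 in SB+Dox against control (644 to 1351, or 696 with every cluster tested) and 195 for the interaction (27 to 352, 421 with the replicate block, 6 with every cluster tested). The replicate block, shared by all groups, brought Neb past the threshold in SB+Dox against SB. It also brought Tmod3 past it in Dox against control (-0.47, adjusted p = 0.0196), where correlations by replicate number did not all pass 0.1. The block ended no call of the 7 genes. Median centring turned the sign of 2 changes that did not pass, Tmod2 and Tmod3 in SB+Dox against SB (0.033 and 0.023). The second Tmod1 cluster turned SB+Dox against SB to -0.29 and the interaction to -0.26; the cause was not tested. Changes near 0 also turned sign with an array left out. The ranges were -0.0039 to 0.18 (Tmod2) and -0.068 to 0.12 (Tmod4) in SB against control, and -0.026 to 0.095 (Tmod4), -0.067 to 0.15 (Lmod3) and -0.030 to 0.37 (Neb) in Dox against control. They were -0.12 to 0.049 (Tmod3) in SB+Dox against SB, and -0.044 to 0.14 (Tmod2) and -0.53 to 0.030 (Neb) in SB+Dox against control. For Tmod3 relative to Tmod1 in the Dox effect averaged over SB levels, the value was -0.025 with a range of -0.14 to 0.14. Signal over background was not available, which limits Tmod2 and Tmod4 most.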
